A study of Rattus norvegicus with 12 samples.

Results

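Interferon-response genes were described here across the cell types of the rat liver, rat by rat. The set held 9 of the 32883 genes in the gene list of the libraries and was chosen by name: Oasl2, Isg15, Ifit3, Ifit2, Mx1, Mx2, Irf7, Ifnar1 and Ifnar2. Values of these data entered that choice, because Oasl2 had been seen higher in DA hepatocytes while interferon gene sets leaned towards LEW in Kupffer cells. Strain differences in hepatocytes and Kupffer cells are therefore given below as levels with no test, and the strain test was read only in the other cell classes. Those classes come from the same libraries, so the test there is not independent of the choice.

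Type I interferons bind a receptor made of the Ifnar1 and Ifnar2 chains, and the kinases on these chains then activate transcription factors that switch on genes that carry an interferon-stimulated response element near their start. Oasl2 belongs to the family of oligoadenylate synthetases that sense viral RNA, Isg15 is a ubiquitin-like protein that is joined to other proteins, Ifit2 and Ifit3 bind foreign RNA and limit its translation, and Mx1 and Mx2 are dynamin-like GTPases that block viral replication. Irf7 is the transcription factor that amplifies interferon production. In the liver, Kupffer cells and sinusoidal endothelial cells face the portal blood and are known to carry many of these genes at rest.

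The livers came from male rats that the labels call healthy, with no treatment named there, while file names carry the word sham. Total liver homogenate (TLH) cells, freed by collagenase, were profiled from 2 DA/OlaHsd and 2 LEW/SsNHsd rats, and nuclei from snap-frozen liver were profiled from 2 DA and 2 LEW rats. A further DA and a further LEW library held cells enriched for immune cells by washing away parenchyma and depleting red cells, and Visium sections came from 2 Wistar rats. The labels gave the TLH rats as 8 to 10 weeks old, the study's methods give an older age and call the strains matched for it, and the file names gave 10 weeks for DA and 13 weeks for LEW. If the file names hold, strain and age cannot be told apart in TLH. The animal numbers in the file names of the nuclei resemble those of the TLH rats, though the study speaks of additional rats, so the preparations are not taken as independent. All levels below are unique molecular identifiers (UMIs) of a gene as CPM, scaled by 1e+06 over all UMIs summed in the cells of 1 class in 1 rat, and values for a strain are listed as rat 1 and rat 2.

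Promoters of 6 of the 9 genes were held in the RefSeq table (GRCr8; 250 bases before to 50 after the annotated start), namely those of Oasl2, Ifit3, Irf7, Mx1, Ifnar1 and Ifnar2. The response element was searched on both strands as GAAA, then any 2 bases, then GAAA, and was found once each in Oasl2, Ifit3 and Irf7, and in none of Mx1, Ifnar1 and Ifnar2. Of all 33469 promoters in the table, 3.92% held a match. The 3 promoters with a match are shown because they hold the letters through which interferon is known to act. Capitals mark the match, which in each case lay on the opposite strand: 151 bases before the start in Oasl2 (chr12:47383136-47383435, minus strand), 44 bases before it in Ifit3 (chr1:241527076-241527375, plus strand) and 69 bases before it in Irf7 (chr1:205799974-205800273, minus strand).
Oasl2: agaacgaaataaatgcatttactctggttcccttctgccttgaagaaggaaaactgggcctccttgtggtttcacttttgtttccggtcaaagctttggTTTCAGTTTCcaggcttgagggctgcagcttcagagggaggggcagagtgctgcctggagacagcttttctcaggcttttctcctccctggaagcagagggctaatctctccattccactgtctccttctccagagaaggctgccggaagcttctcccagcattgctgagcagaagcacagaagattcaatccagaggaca
Ifit3: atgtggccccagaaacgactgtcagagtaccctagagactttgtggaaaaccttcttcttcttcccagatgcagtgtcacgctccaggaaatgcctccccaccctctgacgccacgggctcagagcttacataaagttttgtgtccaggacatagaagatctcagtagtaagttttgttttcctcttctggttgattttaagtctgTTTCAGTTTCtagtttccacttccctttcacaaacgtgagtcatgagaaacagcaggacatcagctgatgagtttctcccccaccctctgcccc
Irf7: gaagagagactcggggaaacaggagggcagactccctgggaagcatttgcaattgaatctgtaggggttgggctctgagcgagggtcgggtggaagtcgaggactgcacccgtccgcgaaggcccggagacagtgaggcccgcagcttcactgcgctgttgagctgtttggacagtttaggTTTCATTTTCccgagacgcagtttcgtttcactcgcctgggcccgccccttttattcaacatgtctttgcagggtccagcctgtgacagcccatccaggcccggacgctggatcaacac
The element of the interferon-gamma pathway, searched as TTCNNNGAA, was found once in Ifnar2, 249 bases before its start, and in 8.87% of all promoters. The matches are a description of these letters and say nothing of binding.

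Cells were assigned to classes by marker gates that held none of the 9 genes. Of the markers, Tlr7 and Aif1 are known to respond to interferon in some cells. The Kupffer list holds Cd163 and Hmox1, which the paper gives as enriched in DA myeloid cells. Kupffer gates and marker shares can thus depend on strain, which was not tested. TLH libraries kept 3844 to 7112 cells and nuclei libraries 2205 to 5262 nuclei. Per rat, the TLH classes held 2489 to 4173 hepatocytes, 416 to 813 Kupffer cells, 273 to 1082 endothelial cells, 75 to 482 mesenchymal cells, 64 to 146 natural killer (NK) cells and 34 to 46 other myeloid cells, and the nuclei classes held 1781 to 4543 hepatocyte, 71 to 111 Kupffer, 159 to 194 endothelial and 74 to 120 mesenchymal nuclei. When each library was clustered on its own, the gated cells carried the same name in 44.2 to 70.0% of mesenchymal, 57.7 to 79.4% of Kupffer and 71.0 to 86.6% of endothelial nuclei per rat, and in 66.6 to 81.3% of TLH Kupffer cells and 78.7 to 98.9% of the other TLH classes. Hepatocyte marker genes made up 5.05 to 6.71% of UMIs in Kupffer cells and 6.25 to 7.54% in endothelial cells, and the share of free RNA estimated from them was 52.4 to 91.8% over the non-hepatocyte TLH classes and 44.1 to 71.5% over those of nuclei. The profile of free RNA was that of the barcodes below the median UMIs of each library. In the immune-enriched libraries and the nuclei of LEW rat 2 these held barcodes past the UMI limit. Subtraction there can take away RNA of cells. The levels and fits were also computed with the estimated share subtracted. With it subtracted 0 genes passed edgeR's strain test in the classes where that test is read here (36 to 496 genes at an unadjusted p under 0.05, DESeq2 not run in that setting), so none of the strain calls below holds in that setting, and other values from it are given beside the results they bear on.

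Most of the genes stood higher in endothelial and Kupffer cells than in hepatocytes, and the strains differed gene by gene. Oasl2 stood higher in both DA rats in each class measured in TLH and nuclei apart from an overlap in TLH other myeloid cells, and passed the test in TLH endothelial cells, whereas Isg15, Ifit3 and Ifnar1 rose in LEW in TLH endothelial cells. These calls are not independent of the choice of the genes.

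In TLH hepatocytes Oasl2 stood at 43.8 and 30.9 CPM in the DA rats (351 and 326 UMIs) and at 2.3 and 3.2 CPM in the LEW rats (23 and 19 UMIs). Both DA rats lay far above both LEW rats, with a mean of 37.3 ± 9.14 against 2.75 ± 0.625 CPM (SD, n = 2 rats each), a 13.6-fold difference. In hepatocyte nuclei the levels were 62.3 and 68.7 CPM in DA and 5.7 and 9.2 CPM in LEW, an 8.78-fold difference with the same order. In TLH Kupffer cells, the resident macrophages of the liver, Oasl2 was 145.0 and 144.2 CPM in DA and 99.5 and 86.1 CPM in LEW. In Kupffer nuclei it was 436.6 and 579.7 CPM in DA and 215.5 and 227.7 CPM in LEW. The strains did not overlap in either preparation, but the gap was 1.56-fold in TLH Kupffer cells and 2.29-fold in Kupffer nuclei, smaller than in hepatocytes. With free RNA subtracted the TLH Kupffer levels were 427 and 446 CPM in DA and 249 and 224 CPM in LEW, again apart.

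Endothelial cells line the sinusoids, and their Oasl2 levels in TLH were 126.3 and 132.0 CPM in DA and 39.4 and 18.8 CPM in LEW. Both LEW rats were well below both DA rats, and the difference passed the test (log2 LEW over DA -2.14, SE 0.247, edgeR adjusted p = 0.000184). With free RNA subtracted it was -2.35 on the log2 scale and did not pass (adjusted p = 0.433). The same TLH libraries hold the hepatocytes used in the choice. Of endothelial UMIs, 78.4 to 88.2% were estimated as free RNA. The call is therefore not independent of the choice. In endothelial nuclei the levels were 233.0 and 261.0 CPM in DA and 126.5 and 94.1 CPM in LEW, without overlap, and the difference missed the threshold (log2 -1.17, SE 0.273, edgeR adjusted p = 0.0633). It passed with no filter (adjusted p = 0.00758) and without either DA rat (0.0208 and 0.0097), and was at 0.434 without LEW rat 2 and 0.574 with free RNA subtracted. Among mesenchymal cells, the stellate cells and fibroblasts, TLH levels were 90.2 and 72.7 CPM in DA and 24.1 and 0 CPM in LEW, where the 0 allows up to 15.7 CPM (3 counts). The DA rats stood above both LEW rats and the test did not pass (log2 -2.54, SE 0.586, edgeR adjusted p = 0.0958), although 7 of the 13 alternatives run passed, among them no filter (adjusted p = 1.7e-05). It did not pass with DESeq2 (adjusted p = 0.135), stricter gates (0.125), free RNA subtracted (0.874) or LEW rat 2, the rat at 0, left out (0.18). Mesenchymal nuclei held 103.2 and 136.9 CPM in DA and 80.1 and 40.1 CPM in LEW (log2 -1.11, SE 0.370, edgeR adjusted p = 0.266). Without LEW rat 1 this difference passed (log2 -1.55, adjusted p = 0.035), and with free RNA subtracted the strains overlapped (DA over LEW 1.07). NK cells held 93.9 and 106.2 CPM in DA and 55.9 and 50.2 CPM in LEW, apart but not past the threshold (log2 -0.96, SE 0.318, edgeR adjusted p = 0.174). TLH other myeloid cells, with 3 to 8 Oasl2 UMIs per rat, held 84.4 and 42.7 CPM in DA and 22.2 and 49.5 CPM in LEW and overlapped.

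Against hepatocytes of the same livers, Oasl2 was higher in Kupffer cells (log2 2.67, SE 0.385, edgeR adjusted p = 1.77e-05) and in endothelial cells (log2 1.89, SE 0.402, adjusted p = 0.00101) of TLH, and likewise in Kupffer nuclei (3.45) and endothelial nuclei (2.40). Mesenchymal nuclei were higher as well (log2 1.44, SE 0.448, edgeR adjusted p = 0.0368), a call that was lost without LEW rat 2 (adjusted p = 0.107), with no block (0.428) and with free RNA subtracted (log2 0.33, adjusted p = 0.781).

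**Figure D1:**
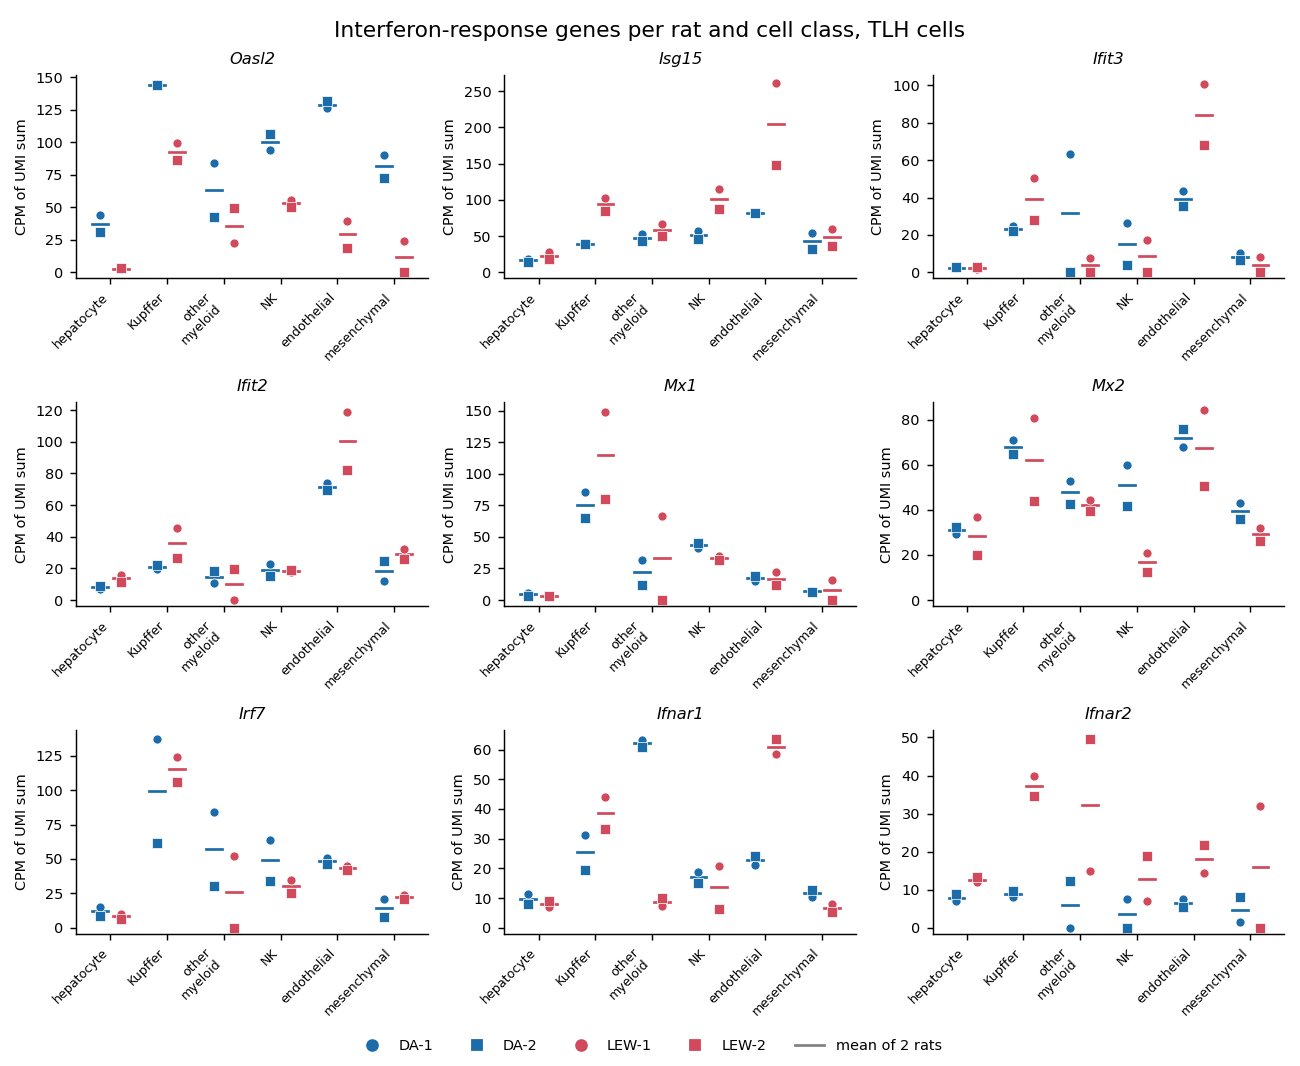
Levels of the 9 genes (CPM of the UMI sum, linear axis from 0 in each panel) in the cell classes of total liver homogenate, with 1 point per rat, DA in blue, LEW in red and a bar at the mean of 2 rats. Oasl2 in hepatocytes stands at 43.8 and 30.9 CPM in DA against 2.3 and 3.2 CPM in LEW, and Mx1 and Irf7 are highest in Kupffer cells.

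Isg15 behaved differently. In TLH hepatocytes it stood at 18.7 and 14.6 CPM in DA and 27.3 and 17.7 CPM in LEW, and the strains overlapped. In TLH Kupffer cells the levels were 40.4 and 38.4 CPM in DA and 103.0 and 84.7 CPM in LEW. Both LEW rats lay above both DA rats there, by 2.38-fold on the means, and they remained apart with free RNA subtracted (84.9 and 81.2 against 206 and 182 CPM). In Kupffer nuclei only 3 or 4 Isg15 UMIs were counted per rat, for 16.6 and 12.7 CPM in DA and 7.9 and 7.9 CPM in LEW, with the DA rats higher, too few UMIs for a firm order.

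In TLH endothelial cells Isg15 was 82.2 and 81.8 CPM in DA and 260.8 and 147.5 CPM in LEW. Both LEW rats were above both DA rats and the rise passed the test (log2 1.26, SE 0.219, edgeR adjusted p = 0.0071). The call was lost without LEW rat 1 (log2 0.82, adjusted p = 0.0881), with free RNA subtracted (log2 1.03, adjusted p = 0.773) and when classes were taken from clusters of each library (adjusted p = 0.0718). Endothelial nuclei held 38.2 and 24.5 CPM in DA and 26.9 and 24.8 CPM in LEW, with overlap (log2 -0.28, edgeR adjusted p = 0.872). NK cells held 56.3 and 45.5 CPM in DA and 115.2 and 87.8 CPM in LEW, apart but not past the threshold (log2 0.96, SE 0.331, edgeR adjusted p = 0.191). NK marker genes were 1.52 and 1.36% of UMIs there in DA and 2.46 and 2.92% in LEW, and estimated free RNA was 81.5 and 80.2% in DA and 72.3 and 67.9% in LEW. Both LEW rats had the larger marker share, the smaller share of free RNA and the higher Isg15, while Oasl2, Mx1 and Mx2 were higher in the DA rats of this class, and beyond the subtraction the part of these shares was not tested. Mesenchymal levels in TLH overlapped (54.7 and 32.0 against 60.2 and 36.7 CPM, edgeR adjusted p = 0.869). By class, Isg15 in TLH was above hepatocytes in endothelial (log2 2.46), NK (1.63), Kupffer (1.47), mesenchymal (1.13) and other myeloid cells (1.09), and in nuclei only endothelial cells passed (2.05, SE 0.315, edgeR adjusted p = 1.06e-06). The call in other myeloid cells was lost without DA rat 2 (adjusted p = 0.0524) and with free RNA subtracted (0.104).

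Ifit3 and Ifit2, partners in binding viral RNA, both stood above hepatocytes in endothelial cells. TLH endothelial Ifit3 was 43.4 and 35.4 CPM in DA and 100.8 and 68.0 CPM in LEW. The LEW rats were both higher and the difference passed (log2 1.07, SE 0.229, edgeR adjusted p = 0.0169), but not without LEW rat 1 (log2 0.78, adjusted p = 0.234), with DESeq2 (adjusted p = 0.126) or with free RNA subtracted (log2 0.68, adjusted p = 0.909). In endothelial nuclei Ifit3 overlapped between the strains, at 26.7 and 61.3 CPM in DA and 49.0 and 35.3 CPM in LEW. TLH endothelial Ifit2 was 73.8 and 69.4 CPM in DA and 119.0 and 82.4 CPM in LEW, apart with a difference short of the threshold (log2 0.44, edgeR adjusted p = 0.265). With free RNA subtracted the TLH rats overlapped (DA over LEW 1.01). In endothelial nuclei the order was turned, at 160.4 and 166.4 CPM in DA and 115.4 and 117.6 CPM in LEW (log2 -0.49, edgeR adjusted p = 0.485).

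Kupffer cells of TLH held Ifit3 at 24.7 and 21.9 CPM in DA and 50.5 and 27.8 CPM in LEW, and Ifit2 at 19.4 and 21.9 CPM in DA and 45.6 and 26.4 CPM in LEW. Both genes were higher in both LEW rats, by 1.68-fold and 1.74-fold, with LEW rat 1 the higher of the pair, and with free RNA subtracted both overlapped. Kupffer nuclei had Ifit3 at 37.4 and 29.6 CPM in DA and 7.9 and 7.9 CPM in LEW, from 3 to 9 UMIs per rat, and Ifit2 at 37.4 and 42.3 CPM in DA and 27.7 and 36.6 CPM in LEW. There the DA rats were the higher ones, for Ifit2 only narrowly, with the nearest rats at 37.4 CPM in DA and 36.6 CPM in LEW. In hepatocytes Ifit3 was at or below 3.0 CPM in every rat of both preparations, while Ifit2 was 7.2 and 9.1 CPM in DA and 16.0 and 11.6 CPM in LEW in TLH, and 7.1 and 7.4 CPM in DA and 22.8 and 12.9 CPM in LEW in nuclei. Ifit2 in hepatocytes was thus higher in LEW in both preparations.

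Against hepatocytes, Ifit3 rose by 4.24 (SE 0.304, edgeR adjusted p = 2.44e-10) and Ifit2 by 2.68 (SE 0.142, adjusted p = 4.13e-31) on the log2 scale in TLH endothelial cells. In endothelial nuclei Ifit2 was higher by 3.17, while Ifit3, which did not pass the filter within hepatocyte nuclei, is given there by its levels only. Ifit3 was also higher in TLH Kupffer cells (3.38), and Ifit2 in TLH Kupffer cells (1.12) and mesenchymal cells (0.94), the last of which was lost without DA rat 2 (adjusted p = 0.265). The mean Ifit2 level over the 4 rats was 86.2 CPM in TLH endothelial cells and 28.3 CPM in Kupffer cells, and 140.0 against 36.0 CPM in nuclei, with no overlap of rats between these classes in either preparation.

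Mx1 and Mx2 lie in 1 family and reads of near-identical stretches could be split between them, so their values carry that uncertainty. Mx1 stood highest in Kupffer cells, where its TLH levels were 86.0 and 64.6 CPM in DA and 149.3 and 79.9 CPM in LEW, with overlap between the strains. In hepatocytes it was 5.9 and 3.1 CPM in DA and 3.0 and 3.2 CPM in LEW. The Kupffer excess over hepatocytes was 4.38 on the log2 scale in TLH (SE 0.196, edgeR adjusted p = 4.96e-22). In hepatocyte nuclei Mx1 was at most 1.3 CPM and did not pass the filter on low counts, so it entered the fit of nuclei through the other classes and the order there is given as levels with no test. Its TLH Kupffer mean of 94.9 CPM was separated from the next class, NK cells at 38.3 CPM, with no overlap of rats. Mx1 was also above hepatocytes in NK cells (log2 3.07), other myeloid cells (2.60, lost without LEW rat 1 at adjusted p = 0.163) and endothelial cells (1.98) of TLH. Kupffer nuclei held Mx1 at 49.9 and 93.1 CPM in DA and 13.8 and 52.4 CPM in LEW, with overlap. TLH endothelial levels overlapped as well, at 15.2 and 19.2 CPM in DA and 22.0 and 11.6 CPM in LEW (log2 -0.06, edgeR adjusted p = 0.964).

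Mx2 was found in every class. TLH hepatocytes held 29.3 and 32.5 CPM in DA and 36.8 and 20.2 CPM in LEW, and Kupffer cells 71.0 and 64.6 CPM in DA and 80.6 and 43.8 CPM in LEW. The strains overlapped in both. Endothelial cells held 67.7 and 76.0 CPM in DA and 84.1 and 50.6 CPM in LEW (log2 -0.14, edgeR adjusted p = 0.814), and endothelial nuclei 53.5 and 94.6 CPM in DA and 63.2 and 51.0 CPM in LEW, again with overlap. Kupffer nuclei held 62.4 and 59.2 CPM in DA and 35.6 and 41.9 CPM in LEW, where both DA rats were higher by 1.57-fold. NK cells held 60.1 and 41.7 CPM in DA and 20.9 and 12.5 CPM in LEW. Both DA rats were higher there too and the test did not pass (log2 -1.55, SE 0.535, edgeR adjusted p = 0.191). Against hepatocytes Mx2 was higher in endothelial cells (0.93 in TLH, 1.26 in nuclei) and Kupffer cells (0.89 in TLH, lost with free RNA subtracted at adjusted p = 0.0756, and 0.84 in nuclei, lost without DA rat 1 at adjusted p = 0.158 or DA rat 2 at 0.0736 and with free RNA subtracted at 0.243).

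Irf7 followed Mx1. In TLH Kupffer cells it stood at 136.8 and 61.5 CPM in DA and 124.0 and 106.3 CPM in LEW, and the DA rats enclosed the LEW rats (DA over LEW 0.861, and 1.14 with free RNA subtracted). Hepatocyte levels were 15.1 and 8.7 CPM in DA and 9.7 and 6.7 CPM in LEW. Endothelial levels were 51.0 and 46.1 CPM in DA and 44.7 and 41.9 CPM in LEW, apart by a small step with DA higher (log2 -0.23, edgeR adjusted p = 0.666). The mean of 107.2 CPM in Kupffer cells was followed by 45.9 CPM in endothelial cells with no overlap of rats. Against hepatocytes Irf7 rose in Kupffer cells (log2 3.14, SE 0.152, edgeR adjusted p = 6.29e-23), endothelial cells (1.95), other myeloid cells (1.74) and NK cells (1.73). In nuclei it did not pass the filter on low counts, and in Kupffer nuclei it was 20.8 and 0 CPM in DA and 13.8 and 13.1 CPM in LEW, where the 0 allows up to 12.7 CPM. Over the 24 TLH sums of 6 classes in 4 rats, Irf7 and Mx1 had the highest correlation of any pair of the 9 genes (Pearson r = 0.84 on log2 CPM plus 1). The lowest was that of Irf7 and Ifnar2 (-0.15), and that of Oasl2 and Isg15 was 0.30. These sums share libraries, and the coefficients are descriptions.

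The receptor chains were recovered unequally by the preparations. In hepatocytes Ifnar1 was 11.5 and 8.0 CPM in DA and 6.9 and 9.1 CPM in LEW in TLH but 43.7 and 51.6 CPM in DA and 37.5 and 45.9 CPM in LEW in nuclei. Ifnar2 was 7.0 and 8.8 CPM in DA and 12.1 and 13.3 CPM in LEW in TLH but 67.8 and 69.4 CPM in DA and 58.9 and 106.4 CPM in LEW in nuclei. The levels of both genes were thus higher in nuclei than in cells, and whether intron reads were counted is not given in the sources used here. The study's methods also name another kit version and another sequencer for TLH cells than for nuclei. The part of these was not tested. Strain order in TLH hepatocytes was LEW above DA for Ifnar2 and overlapping for Ifnar1.

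TLH Kupffer cells held Ifnar1 at 31.4 and 19.6 CPM in DA and 44.2 and 33.3 CPM in LEW, and Ifnar2 at 8.2 and 9.8 CPM in DA and 39.9 and 34.7 CPM in LEW. Both chains were higher in both LEW rats, by 1.52-fold and 4.14-fold. Kupffer marker genes moved in the same order, at 1.39 and 1.52% of UMIs in DA and 2.35 and 2.39% in LEW, and the estimated share of free RNA was 74.4 and 74.5% in DA and 62.3 and 63.7% in LEW. With free RNA subtracted Ifnar2 stayed apart (19.2 and 23.2 against 89.6 and 74.1 CPM) and Ifnar1 overlapped. Kupffer nuclei held Ifnar1 at 99.8 and 118.5 CPM in DA and 75.1 and 55.0 CPM in LEW, and Ifnar2 overlapped at 74.8 and 152.3 against 120.6 and 86.4 CPM. There the Kupffer marker genes stood at 0.533 and 0.719% of UMIs in DA and 0.318 and 0.402% in LEW, again in the order of Ifnar1. The part of these shares in the strain values of all 9 genes in Kupffer cells was not tested beyond the subtraction of free RNA.

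In TLH endothelial cells Ifnar1 was 21.3 and 24.1 CPM in DA and 58.4 and 63.6 CPM in LEW. Both LEW rats were higher and the rise passed the test (log2 1.32, SE 0.237, edgeR adjusted p = 0.00487), though not with free RNA subtracted (log2 1.35, adjusted p = 0.665). Endothelial marker genes were 0.494 and 0.546% of UMIs in DA and 0.629 and 0.571% in LEW, and estimated free RNA was 88.2 and 83.7% in DA and 78.4 and 80.2% in LEW. Both LEW rats thus had the larger marker share and the smaller share of free RNA, as well as the higher levels of Isg15, Ifit3 and Ifnar1, and beyond the subtraction the part of these shares was not tested. Ifnar2 was 7.6 and 5.5 CPM in DA and 14.4 and 21.7 CPM in LEW, apart but short of the threshold (log2 1.38, SE 0.416, edgeR adjusted p = 0.0847). Endothelial nuclei showed no such gap, with Ifnar1 at 112.7 and 150.7 CPM in DA and 136.0 and 125.4 CPM in LEW (log2 -0.01) and Ifnar2 at 103.1 and 68.3 CPM in DA and 96.4 and 82.3 CPM in LEW. Against hepatocytes Ifnar1 was higher in endothelial cells (log2 1.80 in TLH, 1.30 in nuclei) and Kupffer cells (1.57 in TLH, 0.66 in nuclei). The call in endothelial nuclei was lost with free RNA subtracted (adjusted p = 0.108). The Kupffer nuclei call was lost without DA rat 1 (adjusted p = 0.0941) or DA rat 2 (0.128) and with free RNA subtracted (log2 0.12, adjusted p = 0.920). Ifnar2 passed only in TLH Kupffer cells (log2 0.79, SE 0.238, edgeR adjusted p = 0.00506), a call lost without LEW rat 1 (adjusted p = 0.102) or LEW rat 2 (0.0586) and with free RNA subtracted (0.0847), and stood near hepatocytes in endothelial cells (-0.24 in TLH, -0.04 in nuclei).

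**Figure D2:**
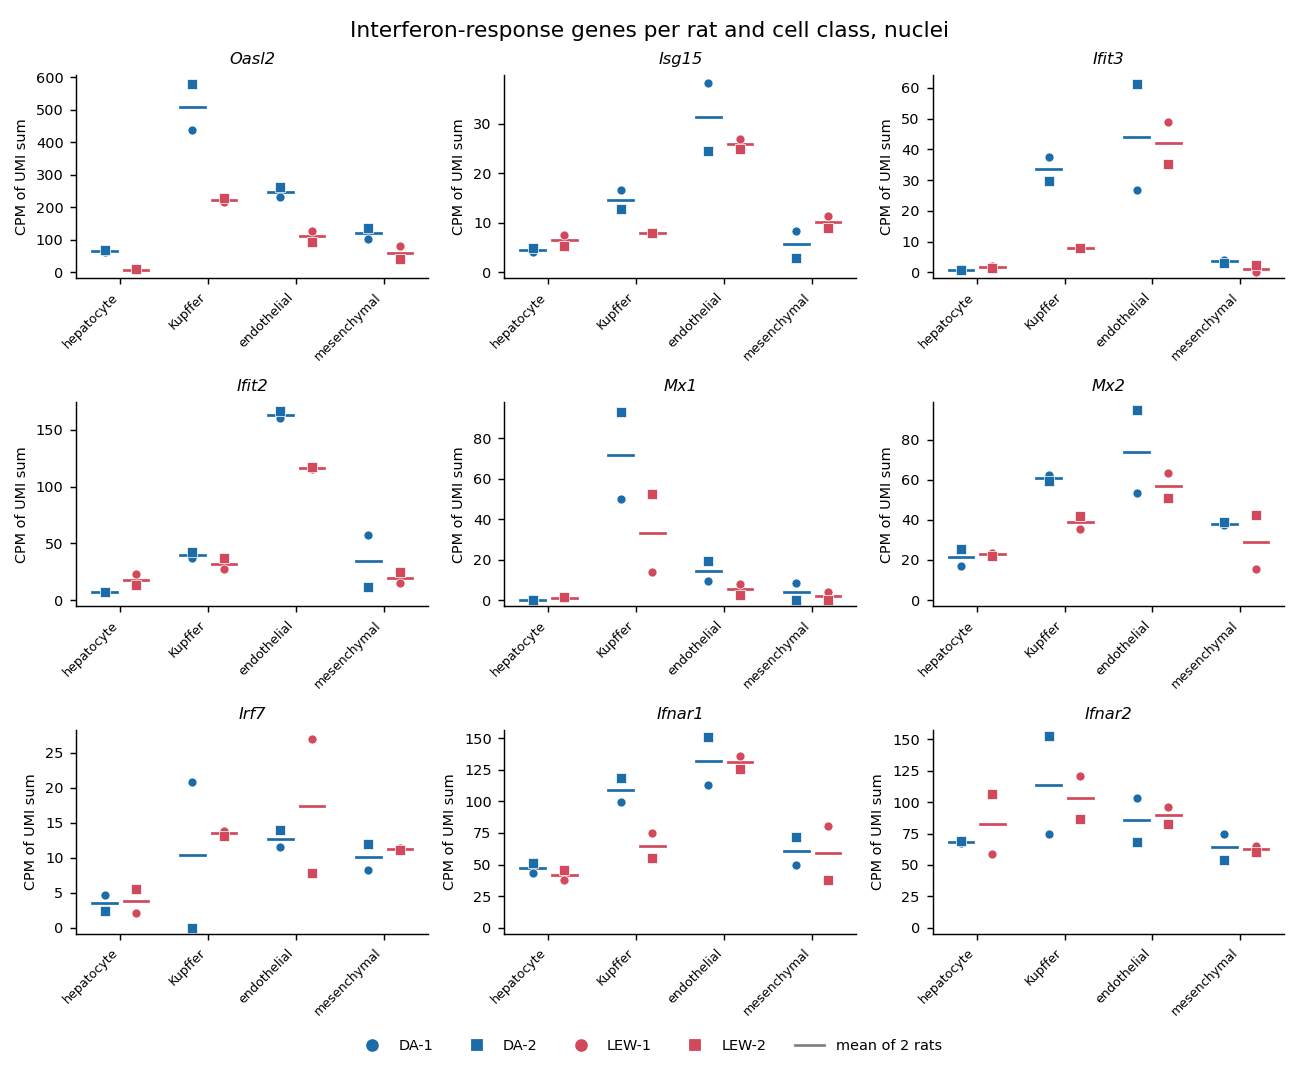
Levels of the 9 genes (CPM of the UMI sum, linear axis from 0 in each panel) in the classes of nuclei, with 1 point per rat, DA in blue, LEW in red and a bar at the mean of 2 rats. Oasl2 in hepatocyte nuclei stands at 62.3 and 68.7 CPM in DA against 5.7 and 9.2 CPM in LEW, and the endothelial levels of Ifit2 lie above those of the other classes.

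The smaller classes gave few UMIs for the remaining pairs of gene and class. In TLH mesenchymal cells Ifit2 was 11.8 and 24.8 CPM in DA and 32.1 and 26.2 CPM in LEW (log2 0.58, edgeR adjusted p = 0.764) and Mx2 was 42.9 and 36.0 CPM in DA and 32.1 and 26.2 CPM in LEW (-0.38, adjusted p = 0.80). Irf7 there was 20.7 and 8.0 CPM in DA and 24.1 and 20.9 CPM in LEW, from 4 to 14 UMIs per rat. Mx1 in NK cells was 41.3 and 45.5 CPM in DA and 34.9 and 31.4 CPM in LEW (log2 -0.43, edgeR adjusted p = 0.689). The rats of the strains did not overlap for these genes, and none of the differences tested passed. In TLH other myeloid cells Ifnar1 was 63.3 and 61.0 CPM in DA and 7.4 and 9.9 CPM in LEW, from 16 UMIs in DA and 2 in LEW (ratio of the summed UMIs 7.30, exact counting interval 1.72 to 65.5). The marker genes of this class were 0.530 and 0.589% of UMIs in DA and 1.33 and 1.43% in LEW, higher in both LEW rats, and estimated free RNA was 72.2 and 57.2% in DA and 59.6 and 52.4% in LEW, with overlap. The part of these shares in the strain values of the class was not tested beyond the subtraction. The receptor chains overlapped between strains in mesenchymal nuclei, with Ifnar1 at 49.5 and 71.4 CPM in DA and 80.1 and 37.8 CPM in LEW (log2 -0.18, edgeR adjusted p = 0.972).

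The remaining genes of the small classes had few UMIs. In NK cells Ifit3 was 26.3 and 3.8 CPM in DA and 17.5 and 0 CPM in LEW, Ifit2 lay between 15.2 and 22.5 CPM, Irf7 was 63.9 and 34.1 CPM in DA and 34.9 and 25.1 CPM in LEW, Ifnar1 lay between 6.3 and 20.9 CPM and Ifnar2 between 0 and 18.8 CPM, all with overlap. TLH mesenchymal cells held Ifit3 at 0 to 10.3 CPM, Mx1 at 0 to 16.1 CPM and Ifnar2 at 0 to 32.1 CPM, with overlap, and Ifnar1 at 10.3 and 12.8 CPM in DA and 8.0 and 5.2 CPM in LEW, without it. TLH other myeloid cells, with at most 10 UMIs of any of the 9 genes per rat, held Isg15 at 42.7 to 66.6 CPM, Mx2 at 39.6 to 52.8 CPM, Irf7 at 0 to 84.4 CPM, Mx1 at 0 to 66.6 CPM, Ifit3 at 0 to 63.3 CPM and Ifit2 at 0 to 19.8 CPM, with overlap, and Ifnar2 at 0 and 12.2 CPM in DA and 14.8 and 49.5 CPM in LEW, apart from 0 to 5 UMIs per rat but overlapping with free RNA subtracted.

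In hepatocyte nuclei Isg15 was 4.1 and 5.0 CPM in DA and 7.5 and 5.4 CPM in LEW, higher in both LEW rats, and Mx2 and Irf7 overlapped at 17.2 to 25.6 CPM and 2.1 to 5.6 CPM. Mx1 was 0.3 and 0 CPM in DA and 1.0 and 1.3 CPM in LEW there, from 0 to 8 UMIs per rat. Ifit3 lay between 0.7 and 1.9 CPM in hepatocyte nuclei and between 1.9 and 3.0 CPM in TLH hepatocytes. Endothelial nuclei held Mx1 at 9.6 and 19.3 CPM in DA and 7.9 and 2.6 CPM in LEW, without overlap until free RNA was subtracted, and Irf7 at 7.8 to 26.9 CPM, with it. Neither passed the filter. In mesenchymal nuclei Isg15 was 8.3 and 3.0 CPM in DA and 11.4 and 8.9 CPM in LEW and Ifit3 was at most 4.1 CPM, from 0 to 4 UMIs per rat. Ifit2 (11.9 to 57.8 CPM), Mx1 (0 to 8.3 CPM), Mx2 (15.3 to 42.3 CPM), Irf7 (8.3 to 11.9 CPM) and Ifnar2 (53.6 to 74.3 CPM) overlapped there.

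Counted over the 9 genes, the strains did not overlap in TLH hepatocytes for 1 gene with DA higher (Oasl2) and 2 with LEW higher (Ifit2 and Ifnar2), while 52.4% of all genes did not overlap there. Among TLH Kupffer cells 1 gene was higher in DA (Oasl2) and 5 were higher in LEW (Isg15, Ifit3, Ifit2, Ifnar1 and Ifnar2) without overlap, beside 50.6% of all genes. In hepatocyte nuclei 1 gene was apart with DA higher and 4 with LEW higher, beside 35.3% of all genes, and in Kupffer nuclei 6 were apart with DA higher and 0 with LEW higher, beside 40.1%. These contrasts helped to choose the genes, and nothing is read from the counts.

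Where the strain contrast was not used in the choice, 4 of 9 genes passed in TLH endothelial cells, 3 higher in LEW and 1 in DA, against 3.43% of all 7339 genes tested (DESeq2 called 3). With free RNA subtracted 0 of all genes passed. The same TLH libraries hold hepatocytes and Kupffer cells, the classes used in the choice. Of endothelial UMIs, 78.4 to 88.2% were estimated as free RNA. The count is therefore not independent of the choice. With a limit of 1500 in place of 2000 UMIs for LEW cells, 5 of the 9 passed and 416 genes in all in place of 252. DESeq2 called 123 genes in all. The median log2 difference of the 9 genes was 0.44, beside -0.00 over all genes. No gene of the set passed in TLH mesenchymal cells (4 tested, 1 at an unadjusted p under 0.05, 0 by DESeq2, beside 0.615% of all genes), in NK cells (4 tested, 3 unadjusted, 0 by DESeq2, beside 1.35%), in endothelial nuclei (7 tested, 1 unadjusted, 0 by DESeq2, beside 0.945%) or in mesenchymal nuclei (4 tested, 1 unadjusted, 0 by DESeq2, beside 0.795%) in edgeR's quasi-likelihood test. Those shares are of adjusted calls. Unadjusted, all genes under 0.05 were 480 of 4225, 474 of 2890, 865 of 7193 and 454 of 4530 in these classes, in that order. In simulated sums of the same depth, a difference of 1 on the log2 scale was recovered for 44.1% of genes in TLH endothelial cells and 13.5% in endothelial nuclei, and one of 2 for 89.6% and 91.9%, so a smaller difference could often not be detected in nuclei. No gene of the set passed the filter in TLH other myeloid cells. The difference between the strain effects of TLH and nuclei was not tested.

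**Figure D3:**
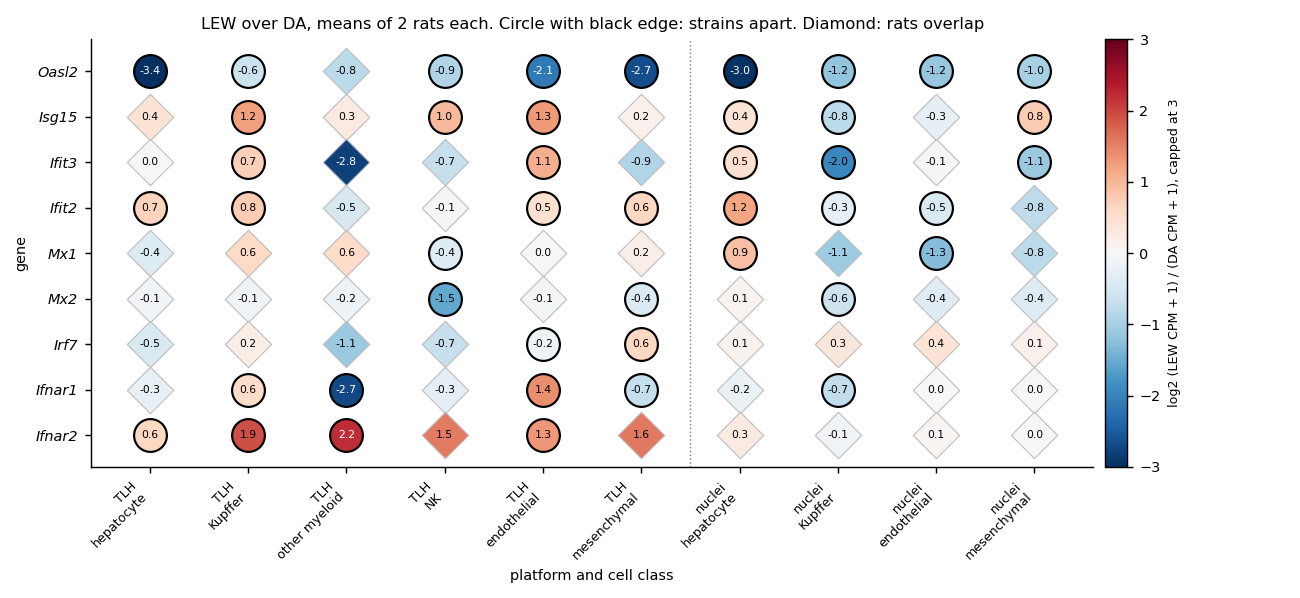
Log2 ratio of the mean CPM plus 1 in LEW to that in DA (2 rats each) for the 9 genes in each class of TLH and nuclei, red where LEW is higher and blue where DA is higher, with circles where the rats of the strains do not overlap and diamonds where they do. The mean of Oasl2 is lower in LEW in every class, whereas Isg15, Ifit3, Ifit2, Ifnar1 and Ifnar2 are higher in LEW in TLH Kupffer and endothelial cells. In Kupffer nuclei Isg15, Ifit3, Ifit2 and Ifnar1 are instead higher in DA, with few UMIs for Isg15 and Ifit3, and so is Ifit2 in endothelial nuclei. The hepatocyte and Kupffer contrasts helped to choose the genes.

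By class, all 9 genes in TLH Kupffer cells were higher than in hepatocytes and none lower, where 26.2% of all 8345 genes were higher and 23.4% lower, and DESeq2 called 8. The calls of Mx2 and Ifnar2 there were lost with free RNA subtracted. In TLH endothelial cells 8 of 9 were higher (all genes: 23.4% higher, 20.0% lower). In NK cells 3 were higher (12.5% higher, 14.9% lower), in other myeloid cells 3 (13.0% and 16.4%), where DESeq2 called 6, and in mesenchymal cells 2 (12.6% and 11.4%). In nuclei 8 genes passed the filter of the fit, but Ifit3 and Mx1 did so only through the other classes and not within hepatocyte nuclei. Of the 6 that passed there too, 5 were higher in endothelial nuclei, 3 in Kupffer nuclei and 1 in mesenchymal nuclei, and none was lower. Of the 7139 genes held to the same condition, 11.3% were higher and 14.7% lower in endothelial, 8.68% and 10.2% in Kupffer and 7.96% and 11.7% in mesenchymal nuclei (without the condition 16.1% and 13.8%, 11.8% and 9.53%, and 12.1% and 11.0%). The median log2 differences of the set were 1.95 in TLH endothelial, 1.57 in Kupffer, 1.63 in NK, 1.1 in other myeloid and 0.80 in mesenchymal cells, and over the 6 genes 1.68, 0.75 and 0.37 in endothelial, Kupffer and mesenchymal nuclei. The medians of all genes lay between -0.18 and 0.03 in TLH and at -0.05 in each class of nuclei under the condition. Below the threshold in NK cells were Oasl2 (log2 1.86, edgeR adjusted p = 0.0543) and Ifit3 (2.11, adjusted p = 0.0718), which passed with free RNA subtracted (adjusted p = 0.00269 and 0.0427).

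The wider pathway was followed in lists of ligands, receptors and signalling, regulators, sensors and adaptors, antiviral effectors, and interferon-gamma type and antigen processing genes. Of 77 list genes tested in TLH Kupffer cells, 56 were higher than in hepatocytes and 2 were lower (all genes: 26.2% and 23.4%), and in endothelial cells 43 were higher and 4 lower (23.4% and 20.0%). Of the 72 that also passed the filter within hepatocytes, 52 were higher and 2 lower in Kupffer cells (all genes under this condition: 24.8% and 24.7%). In endothelial cells 41 of them were higher and 4 lower (22.2% and 21.1%). The antiviral effectors were 25 of 31 higher in Kupffer cells and 21 in endothelial cells. Examples in Kupffer cells were Gbp2, a guanylate-binding protein (log2 4.56), Ifitm1, which blocks viral entry (3.86), and Irf5, a transcription factor of macrophages (3.80). In endothelial cells Rsad2, which makes an antiviral nucleotide, rose by 3.61 and Slfn2 by 2.83. Irf3, the factor that starts interferon production after RNA sensing, was lower than in hepatocytes in both (-0.91 in Kupffer and -1.08 in endothelial cells). In nuclei 29 of 63 list genes were higher in Kupffer nuclei with 0 lower (all genes: 11.8% and 9.53%), and 27 were higher and 3 lower in endothelial nuclei (16.1% and 13.8%). Of the 58 that also passed within hepatocyte nuclei, 25 were higher and 0 lower in Kupffer nuclei (all genes under this condition: 8.68% and 10.2%). In endothelial nuclei 22 of them were higher and 3 lower (11.3% and 14.7%). Among them Slfn2 was higher by 5.01 in Kupffer nuclei and by 4.35 in endothelial nuclei.

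By strain, 4 of 66 list genes passed in TLH endothelial cells, against 3.43% of all genes, beside 21 at an unadjusted p under 0.05, of which 18 were higher in LEW, and 1 by DESeq2. Of all genes there, 1290 of 7339 had an edgeR unadjusted p under 0.05. The median over the 66 genes was 0.30 on the log2 scale. Trim25, the ubiquitin ligase of the RIG-I pathway, was 6.1 and 7.9 CPM in DA and 28.8 and 15.9 CPM in LEW (log2 1.62, edgeR adjusted p = 0.0216), and Samd9, an antiviral effector, was 6.1 and 7.6 CPM in DA and 22.0 and 21.7 CPM in LEW (1.55, adjusted p = 0.0212). Irf8, a transcription factor of myeloid cells, was 16.0 and 20.6 CPM in DA and 6.8 and 7.2 CPM in LEW (-1.50, adjusted p = 0.0418). The abundant Ifi27l2b was 3273 and 3640 CPM in DA and 2397 and 1889 CPM in LEW (-0.77, adjusted p = 0.0103). None of these 4 passed with free RNA subtracted (adjusted p = 0.845 for Trim25, 0.813 for Samd9, 0.773 for Irf8 and 0.112 for Ifi27l2b). In other myeloid cells Ifi27 fell from 1932 and 1878 CPM in DA to 1133 and 782 CPM in LEW (-1.07, edgeR adjusted p = 0.0131), 1 of 18 list genes tested and 0 by DESeq2, against 1.39% of all genes (21 genes, 6 by DESeq2 and 95 with each library clustered on its own), and this call too was lost with free RNA subtracted (adjusted p = 0.173). The marker shares of these cells, given above, differed between the strains as well. None passed in TLH mesenchymal cells (33 tested, 4 unadjusted, 0 by DESeq2, 0.615% of all genes), NK cells (30 tested, 3 unadjusted, 1 by DESeq2, 1.35%), endothelial nuclei (67 tested, 6 unadjusted, 0 by DESeq2, 0.945%) or mesenchymal nuclei (37 tested, 3 unadjusted, 0 by DESeq2, 0.795%) in edgeR's quasi-likelihood test. Unadjusted, all genes under 0.05 were 480 of 4225, 474 of 2890, 865 of 7193 and 454 of 4530 in these classes, in that order.

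Ligands were rarely seen. The type I interferons Ifna2, Ifna4, Ifna5, Ifnb1 and Ifne and the type III interferons Ifnl1 and Ifnl3 had 0 UMIs in the kept cells and nuclei of the TLH, nuclei and immune-enriched libraries, which at these depths does not show that they are absent. Ifng, made by NK and T cells, had 5 UMIs in NK cells of the immune-enriched libraries. Ifnk, a further type I interferon, had 112 UMIs in 110 nuclei, 79 of them in hepatocyte nuclei, and 0 elsewhere.

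The immune-enriched libraries held 1 rat per strain, so their values have no replicate check and the intervals (95%, exact Poisson) cover counting error only. The strain contrasts of hepatocytes and Kupffer cells were used in the choice, so their levels are given as a description with no test. Hepatocytes caught there held Oasl2 with 141 UMIs (33.5 CPM) in DA and 2 UMIs (0.0718 CPM) in LEW, a ratio of 467 with an interval of 127 to 3895. In TLH hepatocytes the LEW level was 2.3 and 3.2 CPM. In Kupffer cells it was 325 against 138 CPM (ratio 2.35, 1.98 to 2.78). Among the classes not used in the choice, it was higher in DA in other myeloid cells (312 against 108 CPM, 2.89, 2.07 to 4.10), endothelial cells (237 against 98.6 CPM, 2.41, 2.05 to 2.82), NK cells (243 against 134 CPM, 1.81, 1.30 to 2.57) and T cells (101 against 15.7 CPM, 6.41, 2.71 to 18.4). In B cells the interval held 1 (1.91, 0.680 to 6.13). The Kupffer ratio was 1.88 with stricter gates and 1.48 with free RNA subtracted, under the limit of that subtraction given above.

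The other genes are given by class, and since depth differed between classes, the counts of intervals that leave out 1 are not compared between them. In endothelial cells 7 of 9 genes had an interval on the LEW side, beside 15.6% of all genes with at least 10 UMIs, among them Isg15 (LEW over DA 1.57, 1.33 to 1.87), Mx1 (2.62, 1.89 to 3.71), Ifnar1 (1.43) and Ifnar2 (1.48, 1.01 to 2.24), 1 on the DA side (Oasl2, beside 7.76% of all genes) and 1 that held 1 (Mx2). Hepatocyte marker genes made up 1.75% of UMIs in the DA endothelial cells. They were 0.485% in the shallow barcodes of that library, those below its median UMIs. These 2345 barcodes held 6590226 UMIs, so barcodes above the limit of 1000 UMIs were among them and they are no clean background. Free RNA could not be estimated there (the value was set to the highest allowed, 95%). Hepatocyte marker genes were 3.43% in LEW endothelial cells, against 7.35% in the shallow barcodes, where barcodes above that limit were also found. The part of hepatocyte RNA in the 7 genes was not tested. In Kupffer cells DA over LEW was 1.65 for Mx2 and 1.39 for Irf7, and with free RNA subtracted, at 17.4% in DA and 52.3% in LEW, it was 1.12 and 0.92. There Isg15 was 0.84 before and 0.67 after the subtraction. The subtracted values rest on those shallow barcodes and are not taken as free of background RNA. In NK cells 5 genes lay on the DA side, beside 4.45% of all genes, with Mx2 at 2.82 and Ifnar1 at 1.99 besides Oasl2, and 0 lay on the LEW side, beside 11.2%. With 1 library per strain these shares are those of the libraries. Erythroid cells had Isg15 and Irf7 on the DA side, at 21 against 2 UMIs (16.1, 3.93 to 142) and 27 against 4 UMIs (10.4). Plasmacytoid dendritic cells, known as the main source of type I interferon, were gated in sufficient number in DA only (35 cells) and held Irf7 at 126.7 CPM from 31 UMIs, Ifnar1 at 212.5 CPM, Ifnar2 at 196.2 CPM, Isg15 at 81.7 CPM and Oasl2 at 32.7 CPM, with 0 UMIs of Ifit3 and Ifit2.

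**Figure D4:**
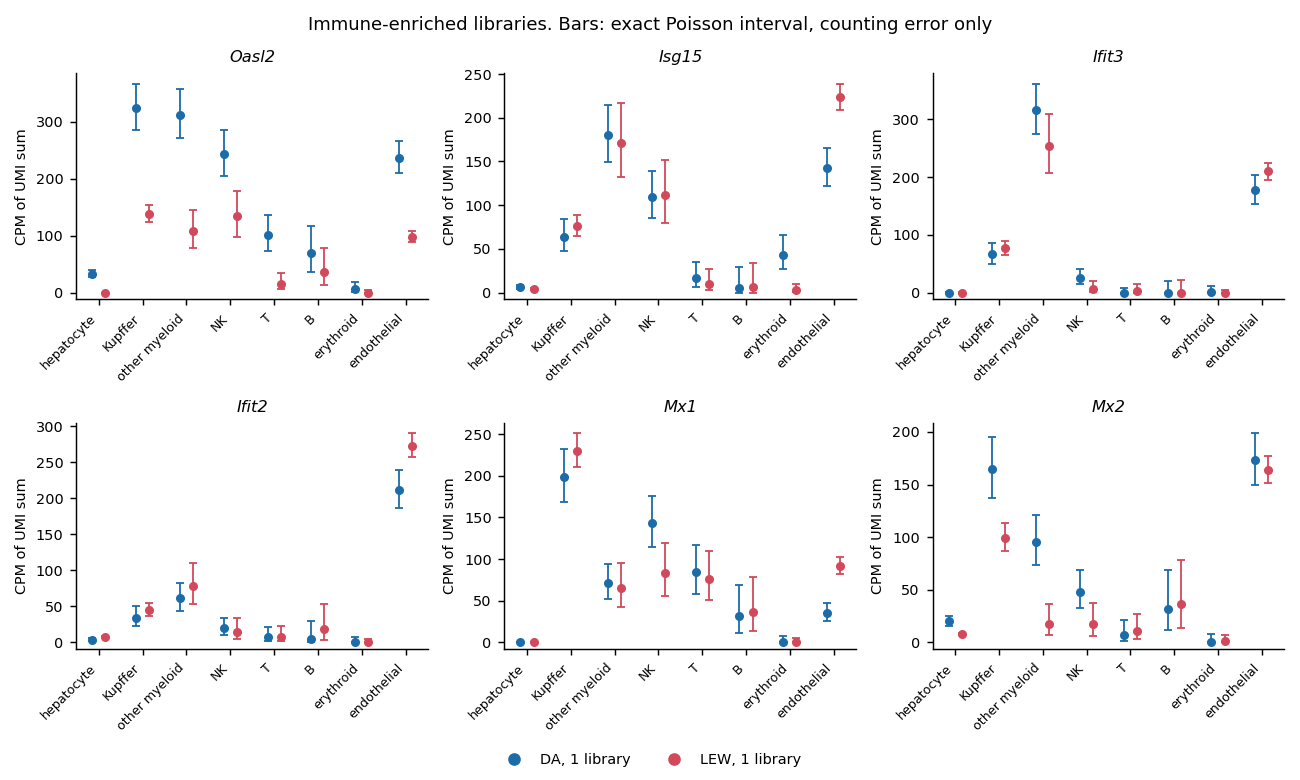
Levels of the 6 effector genes (CPM of the UMI sum, linear axis) in the classes of the DA and the LEW immune-enriched library, 1 library per strain, with bars giving 95% exact Poisson intervals. Oasl2 in hepatocytes stands at 33.5 CPM in DA and 0.0718 CPM in LEW, and the intervals of Isg15 in endothelial cells do not overlap.

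In the Visium sections, where each spot covers several cells and where more cells of a type and more RNA per cell cannot be told apart, Oasl2 stood at 42.4 CPM in section 1 and 37.0 CPM in section 2. Spots were divided into 3 equal parts by a score of periportal minus pericentral genes. Oasl2 was higher in the periportal part by 1.21 (1.06 to 1.37) in section 1 and 1.19 (1.03 to 1.37) in section 2, and Isg15 by 1.41 (1.15 to 1.74) and 1.51 (1.23 to 1.86). The intervals cover counting error only. For the other 7 genes they held 1 in both sections, although in section 2 the interval of Ifnar2 left 1 out under each alternative (1.00 to 6.16 with 4 equal parts of the spots, 1.13 to 5.20 with at least 5000 UMIs per spot and 1.02 to 5.09 with a score of 2 and 2 genes). The share of all genes whose interval leaves out 1 was not computed for the sections. Nothing is therefore read from the number of genes, and Oasl2 and Isg15 are not called particular in this. For scale, Ass1, a periportal gene of the score, had ratios of 1.33 and 1.37, and Cyp2e1, a pericentral one, 0.54 and 0.51.

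**Figure D5:**
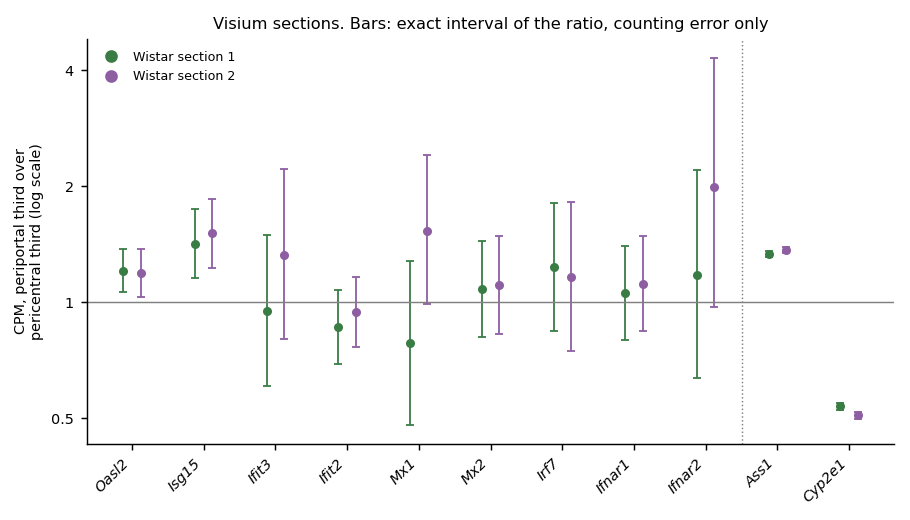
Ratio of the level in the most periportal to that in the most pericentral part of the spots (3 equal parts) for each of the 9 genes and for Ass1 and Cyp2e1 (log axis) in both Wistar sections, with bars giving 95% exact Poisson intervals. Oasl2 (1.21 and 1.19) and Isg15 (1.41 and 1.51) lie above 1 in both sections.

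Genes with the pattern most like that of Oasl2 were sought over the 24 TLH sums among 6299 genes with a mean of at least 10 CPM. Highest were Sec14l1 (Pearson r = 0.83), LOC100912618 (0.82) and Wipf1 (0.81). For Isg15 they were Myl12a (0.86), Tubb5 (0.86) and Sft2d1 (0.85). These sums share libraries and free RNA, and the coefficients are given as descriptions.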

How the data were processed

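Single cells from total liver homogenate and from immune-enriched preparations, nuclei and Visium sections were sequenced by 10x Genomics kits. Per the study's methods, TLH cells had another kit version and sequencer than immune-enriched cells and nuclei. The authors aligned reads to Rnor_6.0 with Cell Ranger 3.1.0 and Space Ranger 1.1.0 (names and versions per the labels and the study's methods) and deposited unnormalised UMI counts of each gene in each barcode, the unit used throughout. Whether introns and strand entered the counting is not given in the sources used here. Total counts per library were 61441846 to 92484173 for TLH, 8039397 to 15186970 for nuclei, 48255870 and 60005133 for immune-enriched cells and 34449562 and 34827603 for Visium, and intervals cover counting error only, as does the limit of 3 counts for a 0.

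From these counts, barcodes were kept at 1500 UMIs (DA rat 1) or 2000 UMIs (the other TLH rats) and 1000 UMIs (immune-enriched, nuclei). For the LEW TLH rats this departs from the study's methods, which state 1500 UMIs, a limit that kept 12124 and 7857 cells here in place of 5457 and 3844 and was run as an alternative. Limits on mitochondrial share were 30, 20, 40 and 40% in TLH, 50% in immune-enriched and 10% in nuclei. A cell joined a class with UMIs in 4 marker genes (nuclei: 3, small lists: 3), a hepatocyte with 8 and at most 2 (nuclei: 1) of other lists. Cells that met several lists equally were left unassigned. These limits were set with counts in hand, 2 markers were dropped, and no doublet caller was run. Cells that met 2 lists made up 3.55 to 6.44% of TLH, 13.2 to 25.3% of immune-enriched cells and 1.35 to 3.32% of nuclei. Gene names were taken by row from the nuclei gene list. Nuclei libraries shared 8 to 24 barcodes pairwise. UMIs were summed per rat and class (at least 20 cells in every rat), so the replicate is the rat. Where nothing says that replicates came from separate experiments, p-values measure the spread between these samples only.

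Strains within a class, and classes against hepatocytes with rat as a block, were compared by edgeR 4.0.16 (quasi-likelihood, TMM, filterByExpr, Benjamini-Hochberg adjustment over all genes tested, threshold 0.05) in R 4.3.3. The alternatives were DESeq2 1.42.0, no filter, other gates, clusters (scanpy 1.11.5, Leiden) and UMI limits. Others were subtraction of free RNA, a block on replicate number and leaving out each rat. Free RNA was estimated from hepatocyte genes, with the barcodes below the median UMIs of each library as its background. Of 4458 barcodes in the nuclei library of LEW rat 2, 2501 were kept, so kept nuclei were among that background. In the immune-enriched libraries it held barcodes above the limit of 1000 UMIs. The log2 difference between rat 1 and rat 2 in DA was correlated, over genes, with that in LEW. The coefficients were -0.23 to 0.01 in TLH and 0.01 to 0.15 in nuclei, so the numbers were not taken as pairs. The fits were tested on simulated data. All 9 members are given in every class of TLH and nuclei, in the small classes partly as ranges, and of the pathway lists those past the threshold with the largest changes. The members and lists were chosen with earlier results of these data known. Immune-enriched libraries had 1 rat per strain and Visium sections no second group, and neither was tested.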

Additional observations from a re-analysis of the deposited data

Results flagged for a closer look

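Some genes stood higher in one strain in every rat of one class or preparation and higher in the other strain in every rat of another. None of these reversals was tested as a difference, and each rests on 2 rats per strain. Strains without overlap were common among all genes tested. In TLH they were 3753 of 7417 genes in Kupffer cells and 3539 of 7339 in endothelial cells. Mesenchymal cells had 1811 of 4225 and other myeloid cells 659 of 1508. Nuclei had 1968 of 4910 in Kupffer, 3620 of 10258 in hepatocyte, 2891 of 7193 in endothelial and 1767 of 4530 in mesenchymal. Nothing is read from the number of reversals. Between preparations, Kupffer cells gave 4 of them. Isg15 was 2.38-fold higher in LEW in TLH Kupffer cells and 1.86-fold higher in DA in Kupffer nuclei, Ifit3 was 1.68-fold higher in LEW and 4.25-fold higher in DA, Ifit2 was 1.74-fold higher in LEW and 1.24-fold higher in DA, and Ifnar1 was 1.52-fold higher in LEW and 1.68-fold higher in DA. The TLH Kupffer values of Ifit3, Ifit2 and Ifnar1 overlapped between strains with free RNA subtracted, while in Kupffer nuclei the DA excess stayed without overlap and was 10.6-fold for Ifit3, 4.08-fold for Ifit2 and 3.54-fold for Ifnar1, and for Isg15, apart in both preparations, it was 2.72-fold. The background of the nuclei of LEW rat 2 held kept nuclei, so the subtraction there can take away RNA of cells. The subtracted folds in nuclei are therefore not taken as firm. Kupffer marker genes were higher in LEW in TLH Kupffer cells (2.35 and 2.39 against 1.39 and 1.52% of UMIs) and higher in DA in Kupffer nuclei (0.533 and 0.719 against 0.318 and 0.402%), and their part was not tested. The nuclei values of Isg15 and Ifit3 rest on 3 to 9 UMIs per rat. For Ifit2 in Kupffer nuclei the nearest rats of the strains were barely apart before the subtraction, so no firm order is read there. Endothelial Ifit2 was 1.41-fold higher in LEW in TLH and 1.4-fold higher in DA in nuclei, and with free RNA subtracted the TLH rats overlapped (DA over LEW 1.01).

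Within nuclei, the DA excess in Kupffer nuclei stood against a LEW excess in hepatocyte nuclei of 1.41-fold for Isg15, 1.83-fold for Ifit3 and 2.46-fold for Ifit2, and the last also stood against the DA excess of Ifit2 in endothelial nuclei. Isg15 was higher in LEW in mesenchymal nuclei as well (7 against 3 UMIs, ratio of the summed UMIs 1.9, exact counting interval 0.433 to 11.4). Ifit3 was 3.19-fold higher in DA there, from 2 against 1 UMIs (ratio of the summed UMIs 2.46, 0.128 to 145). Mx1 was 2.74-fold higher in DA in endothelial nuclei and higher in LEW in hepatocyte nuclei (14 against 1 UMIs, ratio 8.85, 1.35 to 374), and with free RNA subtracted the endothelial nuclei overlapped. Within TLH, Ifnar1 was 7.19-fold higher in DA in other myeloid cells, from 16 against 2 UMIs (1.72 to 65.5), and 1.74-fold higher in DA in mesenchymal cells, against LEW excesses of 1.52-fold in Kupffer and 2.69-fold in endothelial cells. Irf7 was 1.12-fold higher in DA in TLH endothelial cells and 1.57-fold higher in LEW in TLH mesenchymal cells, and with free RNA subtracted these were 1.43-fold and 7.76-fold. The mesenchymal values rest on few UMIs per rat, given above, before 85.7 to 91.8% of the class was estimated as free RNA. The 7.76-fold value thus lies near the floor.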

How the results depend on the processing

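No call turned its direction under any alternative run. Calls past the threshold by strain moved as follows. TLH endothelial cells had 252 genes (DESeq2 123, no filter 532, a limit of 1500 UMIs in LEW 416, 0 with free RNA subtracted, 136 to 580 leaving out each rat in turn) and 4 members (0 with free RNA subtracted, 2 to 5 leaving out each rat). TLH mesenchymal cells had 26 genes (no filter 132, replicate block 105, crossed pairing 6, 1500 UMIs 94, clusters 45, free RNA 0, each rat 19 to 142) and 0 members (1 with no filter, the replicate block, 1500 UMIs or clusters, each rat 0 to 1). NK cells had 39 genes (no filter 153, replicate block 13, crossed pairing 201, stricter gates 75, free RNA 0, each rat 0 to 112) and 0 members (each rat 0 to 0). Other myeloid cells had 21 genes (DESeq2 6, no filter 47, replicate block 74, crossed pairing 76, 1500 UMIs 44, clusters 95, free RNA 0, each rat 22 to 78) and 0 members (each rat 0 to 0). Endothelial nuclei had 68 genes (DESeq2 45, no filter 289, replicate block 123, clusters 21, free RNA 0, each rat 74 to 326) and 0 members (1 with no filter or the replicate block, where Oasl2 passed at adjusted p = 0.0302 with the block, each rat 0 to 1). Mesenchymal nuclei had 36 genes (no filter 139, replicate block 143, stricter gates 15, clusters 111, free RNA 0, each rat 43 to 146) and 0 members (each rat 0 to 1). The crossed pairing was chosen after seeing the data.

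Against hepatocytes, TLH endothelial cells had 3619 genes (no block 2096, free RNA 2332, each rat 2686 to 3313) and 8 members (each rat 8 to 8), and Kupffer cells 4145 (2671, 2056, 3319 to 3807) and 9 (8 to 9). With free RNA subtracted, Mx2 and Ifnar2 were lost from the Kupffer members. Mesenchymal cells had 2007 (no block 1000, clusters 3162, each rat 1455 to 1772) and 2 members (no block 0, stricter gates 4, clusters 7, each rat 1 to 2). NK cells had 2281 (no block 1489, each rat 1773 to 1913) and 3 members (1500 UMIs 5, free RNA 5, each rat 3 to 4). Other myeloid cells had 2459 (free RNA 1531, each rat 1817 to 2260) and 3 members (DESeq2 6, no filter 5, clusters 5, each rat 2 to 3). In nuclei, endothelial had 2276 (no block 1130, each rat 1551 to 2413) and 7 members (7 to 8), Kupffer 1624 (no filter 2462, no block 797, clusters 2512, each rat 968 to 1929) and 5 members (free RNA 3, each rat 3 to 6), and mesenchymal 1751 (no filter 2739, no block 799, each rat 1227 to 1999) and 1 member (no filter 2, no block 0, clusters 3, free RNA 0, each rat 0 to 3). Immune-enriched Kupffer Oasl2, at 2.35, was 1.88 with stricter gates and 1.48 with free RNA subtracted, the last from a background that held barcodes above the UMI limit. Counts in nuclei here include Ifit3 and Mx1, which did not pass the filter within hepatocyte nuclei. The causes were not tested, apart from fewer rats or genes where a setting removes them. For single members, 79 of 99 strain and 415 of 441 class alternatives stayed on the same side of the threshold. Depth limits the small classes, such as TLH other myeloid cells (34 to 46 cells per rat) and Kupffer nuclei (71 to 111).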
